A study of Drosophila melanogaster with 3 samples.

Results

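Chromosome arm 3L carried 296 of the 4751 peaks of dimethylated lysine 27 of the linker histone dH1 (dH1K27me2) in the deposited list, or 6.23%. Every peak whose sequence name is exactly 3L was taken, and the separate heterochromatin scaffold 3LHet was not. The mark was mapped by chromatin immunoprecipitation and sequencing in wild-type S2 cells, an established Drosophila melanogaster line of embryonic origin, with no treatment named in the labels. Of the 3 samples, 2 are immunoprecipitations with rabbit polyclonal antibodies raised against dH1K27me2 in the submitters' own hands, numbered as replicates, and 1 is the input, chromatin DNA taken without antibody. The authors joined the immunoprecipitations before calling peaks against the input. No peak therefore has a value per replicate, no test across samples could be made, and every comparison below describes 1 list. Read depth is also unknown, since the list has no counts. Each peak has a position in build dm3 (Release 5), a width and a score given by the authors, which is used here only to rank and describe peaks.

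Linker histones bind the DNA that enters and leaves the nucleosome and help to compact the chromatin fibre. In flies dH1 is the main somatic linker histone, and it is needed for the normal structure and silencing of pericentric heterochromatin, the repeat-rich, compact chromatin around centromeres. On 3L the telomere lies at the left end and the centromere beyond the right end, so coordinates rise towards the centromere. The assembled arm passes from gene-rich euchromatin into repeat-rich pericentric heterochromatin as it nears this right end.

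The peaks of 3L fell into 3 stretches that differed in spacing, width and score. A dense block at the right end held 238 peaks, a smaller cluster of 33 peaks lay just to its left, and 25 peaks were scattered over the remaining 22.48 Mb. The block was found by walking left from the last peak and joining peaks as long as the gap to the next was at most 100 kb. It ran from 22975244 to 24517358 (3L, dm3), a length of 1542.1 kb. It held 80.4% of the arm's peaks (95% Wilson interval 75.5 to 84.5%, which covers the counting of peaks only) and 82.3% of the bases in peaks. The smaller cluster, called the border cluster here, holds the peaks that join the block when gaps of up to 200 kb are allowed. It was set apart after the positions had been seen. It ran from 22476593 to 22809538, held 11.1% of the peaks (8.05 to 15.2%), and was parted from the block by 165705 bp without a peak. To its left the next peak was 1056686 bp away. The 25 peaks of the outer arm made up 8.45% of the list for 3L (5.79 to 12.2%).

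**Figure D1:**
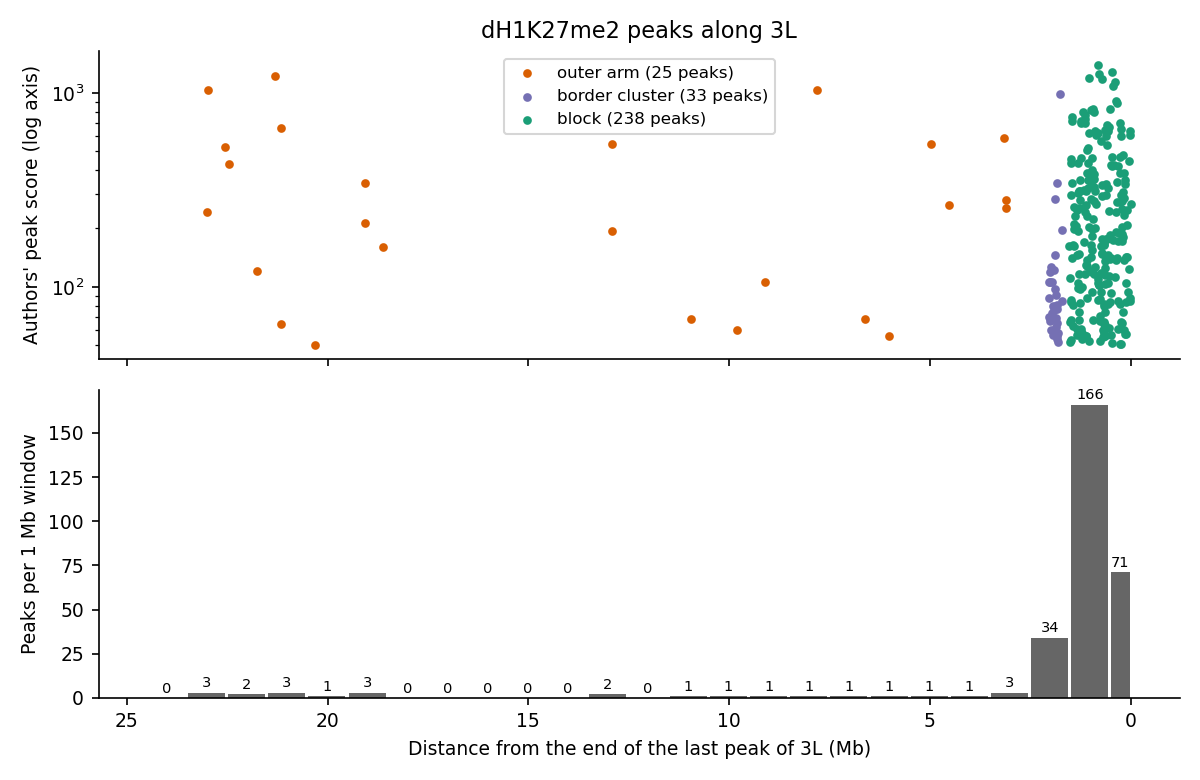
The upper panel plots the authors' score of each of the 296 peaks (log axis) against its distance in Mb from the end of the last peak of 3L, coloured by stretch. The lower panel counts peaks in windows of 1 Mb, the last of which is shorter; the windows rise from at most 3 peaks over the outer arm to 34 and then 166.

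Density changed in steps along the arm. Of the first 22 windows of 1 Mb, 7 held no peak and the fullest held 3, and peaks covered between 0 and 1.91% of the bases in these windows. The next window held 34 peaks and 7.24% of its bases, and the one after held 166 peaks and 48.1%. Per Mb, the outer arm had 1.112 peaks, the border cluster 99.12 and the block 154.3. Peaks covered 0.3715% of the outer arm, 20.48% of the border cluster and 45.76% of the block. The block thus had 139-fold the peak density and 123-fold the covered share of the outer arm. Against everything outside the block, the border cluster included, the ratios were 61.1 and 69.3. The stretches were bounded at gaps between peaks, so part of these contrasts was set by the rule. The block's length was measured to the end of the last peak, so any unmarked sequence to the right of 24517358 is not counted.

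At the left edge of the block, cover rose steeply from 1 window of 100 kb to the next. The joining rule itself requires more than 100 kb without a peak to the left of this edge, so the low side was partly set by the rule. The window from 22900001 to 23000000 held 1 peak, the first of the block, and 4.2% of its bases. The next, from 23000001 to 23100000, held 18 peaks and 45.4%. The first peak of the block spanned 22975244 to 22979441, with a score of 162.78, and 27336 bp without a peak followed it, so that closely spaced peaks began at 23006778. From there to the right end, the 15 whole windows of 100 kb each held 9 to 22 peaks. Their covered share ran from 21% to 58.5% with a median of 47.8%. How sharply the border cluster rose on its left side cannot be read from these windows, because its ends fell within windows. The 1056686 bp before the cluster held no peak, though the joining rule itself requires a gap of more than 200 kb there. The cluster began at 22476593, late in the window from 22400001 to 22500000, which held 3 peaks and 5.24% of its bases. The cluster's fullest windows, from 22500001 to 22600000 and from 22600001 to 22700000, held 12 and 15 peaks and 19% and 30% of their bases. Cover then fell to 7.96% in the window that followed. It was 5.95% in the one after that, early in which the cluster ended at 22809538.

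**Figure D2:**
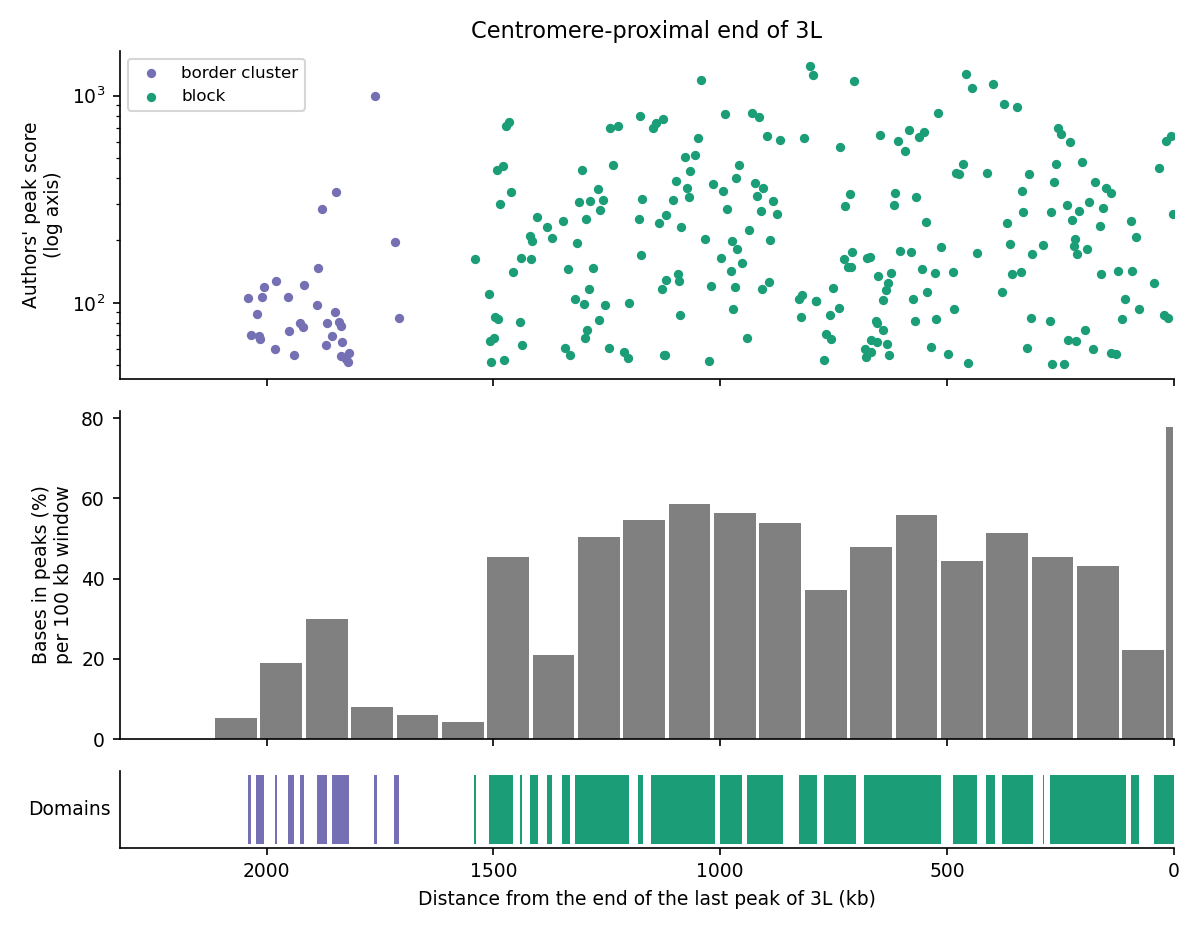
The right end of 3L by distance in kb from the end of its last peak, with the authors' score per peak (top, log axis), the percentage of bases in peaks per 100 kb window (middle; the rightmost window is cut short by the last peak) and domains of peaks at most 10 kb apart (bottom). The border cluster, in purple, has mostly low scores and short domains, and the block, in green, keeps a cover of 21% to 58.5% in every whole window.

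Inside the block the peaks lay in large domains that were themselves only partly covered. Peaks at most 10 kb apart were joined into a domain, which gave 22 domains in the block, 9 in the border cluster and 20 on the outer arm. In the block 9 domains of 10 or more peaks held 188 of the 238 peaks, or 79%. These large domains were 47.7 to 169.5 kb long, and peaks filled 44.6% to 84.4% of their length. The domain with most peaks held 38 and spanned 23835610 to 24005120, with 54.3% of its 169.5 kb in peaks. The next held 33 peaks over 167.0 kb, from 24244382 to 24411419, with 51.9% in peaks. The third in rank, from 23365871 to 23505258, held 26 peaks over 139.4 kb and was fuller, at 67.3%. The fullest of the large domains was shorter, with 15 peaks over 80.7 kb from 23575737 to 23656434 and 84.4% in peaks. Its left border was a gap of 10306 bp, and gaps of 12491 and 11844 bp bounded the domains of 26 and 33 peaks on the right. A joining gap somewhat larger than 10 kb would therefore merge each of them with a neighbour. Strong and weak peaks lay side by side in these domains. Scores ran from 54.83 to 820.8 in the domain of 38 peaks and from 52.46 to 1186.82 in that of 26.

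Few long intervals without peaks broke the block. The median gap between neighbouring peaks was 1311 bp (interquartile range 312 to 4030 bp, 237 gaps), and 21 gaps were longer than 10 kb. The widest was 34621 bp, from 23656435 to 23691055. It was followed in size by 32239 bp from 24440802 to 24473040, near the right end, and by the 27336 bp behind the first peak. At the other extreme 106 of the 237 gaps were under 1 kb and 25 were under 100 bp, the smallest being 1 bp. Some neighbouring peaks thus had almost no interval between them. In the border cluster the median gap was 3619 bp, and on the outer arm it was 526953 bp.

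The block was not graded from end to end. Cut into 4 equal parts of 385.5 kb, it held 55, 61, 64 and 58 peaks from left to right. Cover was 37.8%, 56.9%, 46.9% and 41.5%, and the median score was 163.7, 267.21, 146.92 and 198.0. The second part stood highest in cover and median score. It held 15 peaks at a score of 500 or more, against 5, 12 and 7 in the other parts from left to right. Scores under 100 made up 11.5% of its peaks, against 32.7%, 32.8% and 25.9% in the other parts in the same order. Spearman's rho of position with score across the 238 peaks was 0.025, and that of position with width was 0.029. The peaks share libraries and are not replicates, so these values describe the list only.

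Scores and widths differed between the stretches in an order that density did not follow. The outer arm, the sparsest stretch, had the highest median score at 255.89 (interquartile range 106.37 to 542.46). The block had 183.59 (97.7 to 357.9) and the border cluster 79.98 (66.67 to 106.42). The 95% order-statistic intervals of these medians, which cover the counting of peaks only, were 120.79 to 527.82 for the outer arm, 161.92 to 233.13 for the block and 69.42 to 105.37 for the border cluster. The border cluster's interval thus lay below both others, while the wide interval of the outer arm enclosed that of the block. Median width followed the same order, at 2711 bp on the outer arm (interval 1954 to 5073 bp), 2122 bp in the block (1996 to 2485 bp) and 1555 bp in the border cluster (1366 to 1799 bp). Scores under 100 were given to 66.7% of the border cluster's peaks, 25.6% of the block's and 24.0% of the outer arm's. Peaks of 5 kb or more made up 32.0% of the outer arm's peaks, 14.7% of the block's and 9.09% of the border cluster's.

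Whether peaks inside the block score higher than those outside depends on where the border cluster is put and on whether weak peaks are kept. With the border cluster counted as outside, the 58 outside peaks had a median score of 105.78 and a median width of 1799 bp, both below the block, at block-to-outside ratios of 1.74 for score and 1.18 for width. Against the outer arm alone the ratios were 0.717 and 0.783, the opposite direction. With the border cluster still outside, scores of 100 or more gave 1.06 for score and 1.02 for width. Keeping only peaks at or above the list's median score of 137.75 gave 0.913 and 0.746. No direction can therefore be given for the contrast of inside and outside as a whole.

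**Figure D3:**
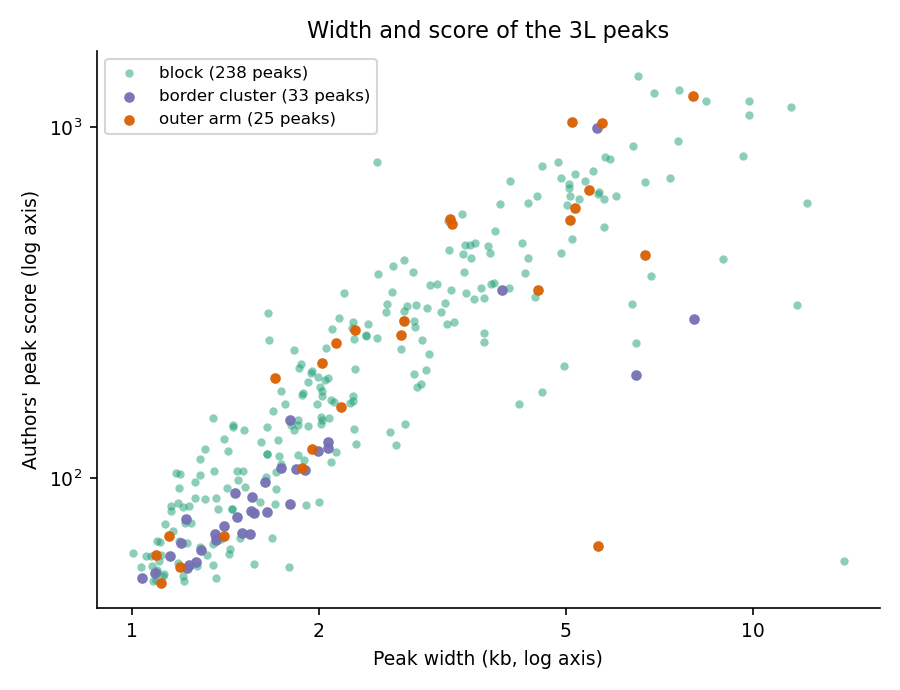
Authors' score against peak width in kb for the 296 peaks of 3L, both on log axes, coloured by stretch. Width and score rise together in all 3 stretches; most of the border cluster sits at low values of both, and the widest peak, at 14027 bp, lies far below the trend with a score of 57.81.

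Wider peaks tended to have higher scores in every stretch. Across the 296 peaks Spearman's rho of score and width was 0.90, and it was 0.90 in the block, 0.94 in the border cluster and 0.82 on the outer arm. At like scores the stretches had peaks of like width at the low end. Among peaks scoring 100 to 200, the median width was 1888 bp in the block (65 peaks), 1950.5 bp in the border cluster (8 peaks) and 1916 bp on the outer arm (4 peaks). Among peaks scoring 800 or more it was 7596 bp in the block (12 peaks) and 5708 bp on the outer arm (3 peaks), and the 1 such peak of the border cluster was 5611 bp wide. Whether the score depends on width by the way it is computed was not tested. Of the 46 peaks of 5 kb or more on 3L, 2 scored under 150. One was the widest of the arm, of 14027 bp at 23297519 to 23311545 in the block, with a score of 57.81. The other lay on the outer arm at 3352440 to 3358078, was 5639 bp wide and scored 64.15.

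The highest scores were found both in the block and far from it. The 5 highest in the block were 1394.98, 1273.27, 1251.24, 1186.82 and 1181.41. The peak at 1394.98 (23712599 to 23719130, 6532 bp) and the one at 1251.24 (23719482 to 23726415, 6934 bp) were neighbours 351 bp apart. The peak at 1273.27 spanned 24056154 to 24063761, that at 1186.82 spanned 23470402 to 23480273, and that at 1181.41 spanned 23808481 to 23816872. Each of these 5 lay 457.401 to 1042.021 kb from the end of the last peak. Outside the block the highest score was 1224.84, for a peak of 8006 bp at 3202157 to 3210162 on the outer arm, 448295 bp from the peak to its left. It was followed by 1031.19 (1526790 to 1531900), 1028.59 (16709200 to 16714907) and, in the border cluster, 991.37 (22754340 to 22759950). The fifth, at 662 (3360238 to 3365688), lay 2159 bp to the right of the wide, low-scoring peak named above. The peak of 991.37 stood apart within the border cluster, where the next highest score was 342.87 and 54622 bp without a peak lay to its left. The widest peak outside the block, of 8052 bp at 22636380 to 22644431, also belonged to the border cluster and scored 283.06.

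**Figure D4:**
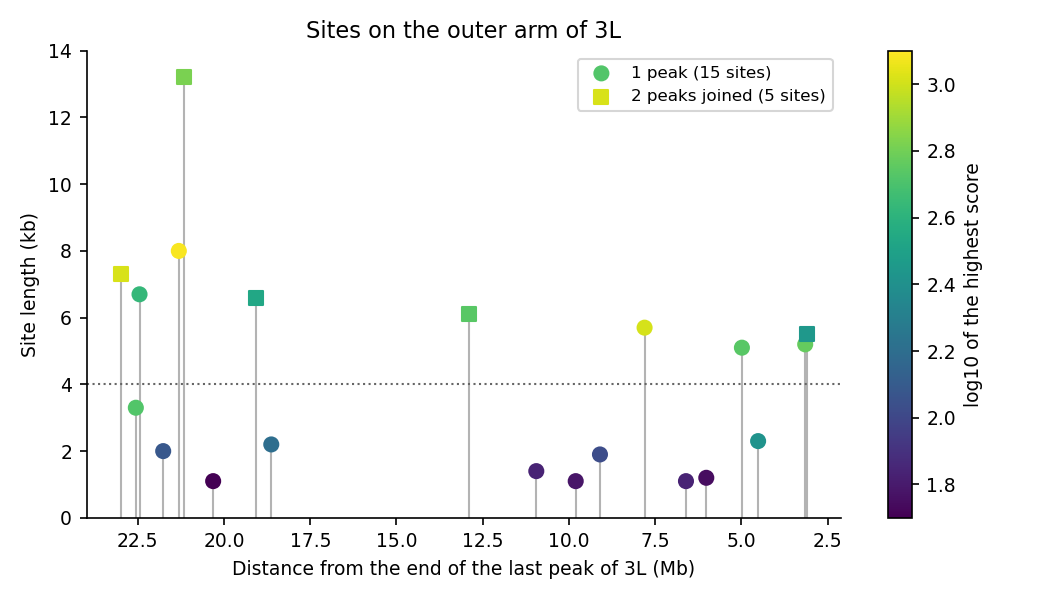
Length in kb of the 20 sites of the outer arm against their distance in Mb from the end of the last peak of 3L, with colour giving log10 of the highest score in the site. Circles are single peaks, squares are pairs joined over at most 10 kb, and the dotted line marks 4 kb; 10 sites lie below it, at up to 3274 bp, and 10 above it, from 5073 bp.

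On the outer arm the 25 peaks formed 20 sites, of which 15 were single peaks and 5 were pairs at most 10 kb apart. The pairs spanned 1524576 to 1531900, which includes the first peak of the arm, 3352440 to 3365688, 5452861 to 5459457, 11605777 to 11611835 and 21414445 to 21419906. The peaks of 3 of these pairs were under 100 bp apart. With pairs joined, site lengths fell into a short and a long set with none between 3274 and 5073 bp. The 10 short sites had a median length of 1643.5 bp and highest scores from 50.35 to 527.82 with a median of 87.4. The 10 long sites, which include all 5 pairs, ran from 5073 to 13249 bp with a median of 6328 bp, and their highest scores ran from 280.73 to 1224.84 with a median of 566.55. The split at 4 kb was placed after the lengths had been seen and was not tested. It also rests on joining the pairs, since a joined pair is longer than either of its peaks. Taken singly, 1 peak of a pair was 4513 bp wide and so lay between the sets, and the pair at 21414445 to 21419906 consisted of peaks of 2744 and 2711 bp. Long sites were found in both the left and the right part of the arm. The longest gap between neighbouring peaks, of 5717618 bp, ran from 5888159 to 11605776 in the left part of the arm, and the next longest such gaps were 1959552 bp and 1361748 bp. The stretch from the left end of the arm to the first peak at 1524576 is not among these gaps and held no peak.

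**Figure D5:**
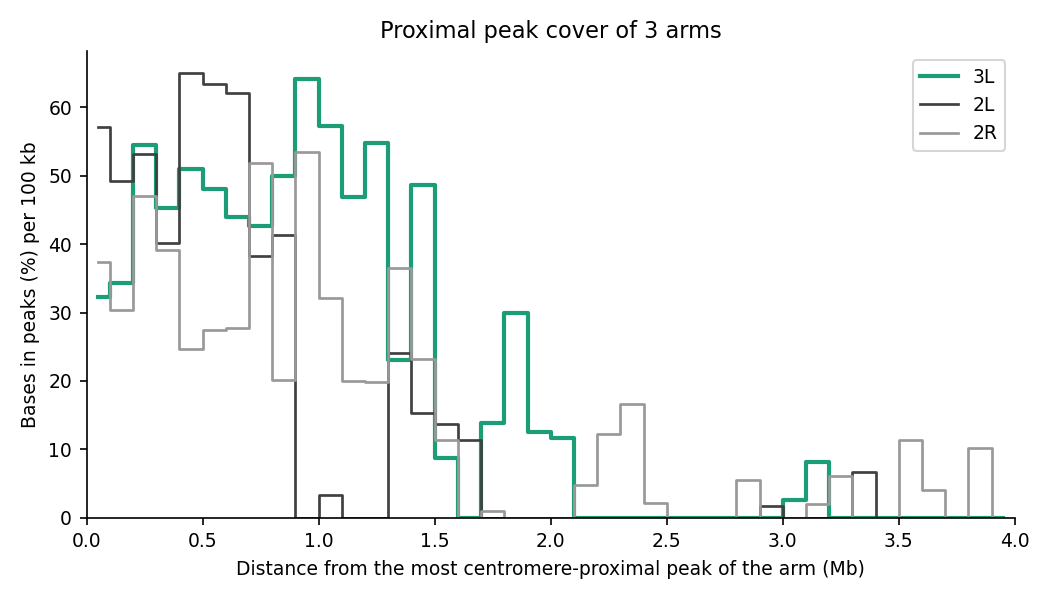
Percentage of bases in peaks per 100 kb against distance in Mb from the most centromere-proximal peak, for 3L, 2L and 2R. Cover of 3L stays at 23.1% or more over the first 15 windows, whereas that of 2L reaches 0 within the first 1 Mb and returns to 24.1% farther out.

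Set beside the other arms by the same rule, 3L had the longest block of the 5, with that of 2R close in length. The block of 2R held 189 of 231 peaks over 1516.3 kb, that of 2L 102 of 146 over 898.2 kb, that of X 5 of 28, and on 3R the rule joined no peak to the first one. These are single values from 1 list, so no test of a difference between arms was made. Other joining gaps were not tried on the other arms, and on 3L the edge moved with 200 kb and with 20 kb. Peaks covered 45.8% of the block on 3L, 33.1% on 2R and 52.3% on 2L. Median peak width was nearly the same on 3L and 2R, at 2122 and 2134 bp, as was the median score, at 183.59 and 180.57. The block of 2L had wider peaks, with a median of 3992 bp, and higher scores, with a median of 399.34. From the most proximal peak outwards, mean cover on 3L was 43.4%, 49.8%, 46.2% and 13.1% in successive stretches of 500 kb. On 2R it was 35.7%, 36.2%, 26.3% and 2.49%, and on 2L 52.9%, 41.0%, 8.55% and 5.02%. Cover also reappeared beyond the block on both, at up to 24.1% per 100 kb on 2L and 16.7% on 2R along the profiled stretch. In the border cluster of 3L it reached 30.0%. The scaffold set 3LHet, which holds heterochromatin assigned to the same arm but outside its assembled sequence, had 293 peaks over 2540.2 kb and a cover of 42.6%. Its peak density of 115.3 per Mb was below the 154.3 of the block, its median width of 2682 bp and median score of 241.65 were above the block's, and its median gap of 1447.5 bp was close to the block's 1311 bp.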

How the data were processed

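The data were 1 peak list from 2 immunoprecipitations, pooled by the authors, and 1 input. The submitters' processing notes name FastQC 0.10.1, Bowtie 0.12.5, SAMtools, featureCounts, MACS 1.4 and 1.4.2, and build dm3, without parameters. The list's name gives only part of the first immunoprecipitation's library number, so which of its runs were used is not given in the sources used here. The deposited score per peak has no stated scale; MACS 1.4 usually writes the negative log10 of p times 10, where a score of 50 is a p of 1e-05. Treatment of reads from repeats is not given in the sources used here.

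Starts were converted to 1-based positions. Width is end minus start as deposited. Peaks were joined into the block over gaps of at most 100 kb and into domains over at most 10 kb. The code of the block and domain steps was checked on 20 simulated arms with known edges. These arms held no border cluster, so the check does not bear on where the real edge is placed. Python 3.11.15, pandas 2.3.3, SciPy 1.17.1 and Matplotlib 3.10.9 were used. Shares have 95% Wilson intervals and medians exact binomial order-statistic intervals. The members, stretches and rules were chosen with earlier results of these data known. Peaks named were the 5 highest scores inside and outside the block, the widest of each, the first and last, the 3 domains with most peaks, the outer pairs and the 3 widest gaps; others were named after their values were seen. Genes and sequence under the peaks were not analysed here, because no genome of dm3 was used.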

Additional observations from a re-analysis of the deposited data

How the results depend on the processing

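Of 52 values recomputed under other settings, 15 counted as unchanged, 31 moved and 6 reversed. Unchanged meant an equal edge or an equal printed rho, or a number of domains within 1.5 times that reported. Otherwise it meant that the value, or both values of a ratio, stayed within the counting interval. A joining gap of 50 kb selects the same 238 peaks as the block rule, so the values under it could not differ. Conversely, the score cuts could only lower density and cover and raise median scores, and merging could only lower density. Some of the 31 moved values therefore had to change by construction. The left edge stayed at 22975244 with a joining gap of 50 kb, with scores of 100 or more and with only the peaks at or above the list's median score of 137.75. It moved to 22476593 with 200 kb and to 24473041 with 20 kb, where the 32239 bp gap ends the block after 7 peaks. The share of peaks in the block became 91.6% with 200 kb, 2.36% with 20 kb, 85.5% with scores of 100 or more, 87.1% with the median-score cut and 74.2% with peaks under 1 kb apart merged. In the same order the density ratio of inside to outside became 119, 13.4, 87.9, 101 and 42.8, against 61.1 as computed with the block rule. The ratio of covered shares became 102, 14.7, 83.4 and 89.5 under the first 4, against 69.3. The ratio of median widths reversed to 0.746 with 200 kb, to 0.746 with the median-score cut and to 0.783 against the outer arm alone, an alternative chosen after seeing the data, and was 1.41 with 20 kb, 1.02 with scores of 100 or more and 1.48 with merging. The ratio of median scores reversed under the same 3 settings, to 0.64, 0.913 and 0.717, and was 1.61, 1.06 and 2.19 under the other 3. Under 200 kb and the outer arm alone the border cluster leaves the outside group by construction. With merging, a merged peak took the whole span and the highest score of the peaks in it, so its width and score could not fall. For the other changes the cause was not tested. The median gap in the block became 2139.5 bp with 20 kb, 2277.5 bp with scores of 100 or more, 3136 bp with the median-score cut and 3888 bp with merging. The number of domains on 3L was 51, and became 83, 32 and 22 with domain gaps of 5, 20 and 50 kb. The rho of score and width became 0.86 with scores of 100 or more and 0.81 with the median-score cut. No replicate could be left out and no paired analysis was possible because values per replicate were not used here. Without read counts, weak signal below the authors' threshold was not detectable.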
